A study of Mus musculus with 14 samples.

Results

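The comparison described here is the difference between hearts of Ccl24 knockout mice and hearts of wild-type mice that had undergone sham surgery, so that neither genotype was under pressure overload. It uses 4 of the 14 libraries of the series, chosen by their labels: 2 knockout sham libraries (replicates 1 and 2) and 2 wild-type sham libraries (replicates 1 and 2). Polyadenylated RNA from mouse cardiac ventricle, taken 1 week after surgery, was sequenced and counted per gene. The other 10 libraries came from mice with transverse aortic constriction (TAC), an operation that narrows the aorta and raises the pressure the left ventricle works against, 6 of them wild type and 4 knockout. They entered the sham comparison only through the filter on low counts, the scaling and the estimate of the spread. They also served as a separate set of hearts of the same genotypes. The number of libraries in each group equals the number of mice in the study's design, so a library was taken as 1 mouse. The strain, sex and age of the mice, the way the knockout allele was made, whether the wild-type mice were littermates and the time of day of collection are not stated in these sources.

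Ccl24, also called eotaxin-2, is a chemokine of the CC family that signals through the receptor Ccr3 and is best known for attracting eosinophils. In several tissues it is made by macrophages and it has been studied in connection with fibrosis. The ventricle is a mixture of cardiomyocytes, fibroblasts, endothelial cells, mural cells and macrophages, and in such bulk tissue fewer cells of a type cannot be told apart from less RNA per cell.

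Total counts were 23702416 and 19922186 in the wild-type sham libraries and 20335453 and 22410360 in the knockout sham libraries, within the 17072262 to 33123052 of the series. The tissue label was checked against markers. The heart muscle myosin gene Myh6 stood at 23656 and 22663 CPM (counts scaled to the size and composition of each library) in wild type and at 26662 and 22237 CPM in knockout. The atrial myosin light chain gene Myl7 was at or below 0.152 CPM in all 4 libraries. All 14 libraries held counts of Y-linked genes (866 to 1845 for Eif2s3y) and 0 to 3 of Xist, which is the pattern of male mice. One library outside the comparison went against its label: Ccl24 had only 3 counts in the library labelled wild-type TAC replicate 1, and the other 5 wild-type TAC libraries held 56 to 105. Because that library takes part in the estimate of the spread, results are given with it and without it.

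Ccl24 itself was low in both knockout sham hearts. It had 61 counts (95% Poisson interval 46.7 to 78.4) and 72 counts (56.3 to 90.7) in the wild-type sham libraries, against 6 (2.20 to 13.1) and 3 (0.619 to 8.77) in the knockout. On the CPM scale these are 2.60 and 3.65 against 0.308 and 0.147, and the summed counts per library size were 13.7 times higher in wild type (exact interval 6.98 to 30.5, counting error only). The groups do not overlap, and all 4 knockout TAC libraries, at 3 to 8 counts, were as low. The log2 fold change after sham was -3.76 (SE 0.99), which edgeR's quasi-likelihood test with Benjamini-Hochberg adjustment did not pass over all 14 libraries (adjusted p = 0.2002) and did pass without wild-type TAC replicate 1 (adjusted p = 0.00197). The gene lies on the minus strand of chromosome 5 at chr5:135569937-135573049 (GRCm38, GENCODE M21).

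Across the genome few genes passed an adjusted p of 0.05 between the sham hearts in the fit over all 14 libraries. Of 15876 genes tested, 20 had an adjusted p under 0.05 (0.126%), of which 6 were higher in knockout (0.0378%) and 14 lower (0.0882%). Of these, 19 were protein coding and 16 differed at least 2-fold. All 20 had sham groups that did not overlap, but so did 53% of all genes tested, so with 2 libraries a group this alone carries little information. Without wild-type TAC replicate 1 the count was 63 of 15880 (0.397%), with 18 higher (0.113%) and 45 lower (0.283%), and all 20 were among them. It was 79 without wild-type TAC replicate 7 and 31 without knockout TAC replicate 1. The count also depended on the sham libraries themselves, at 3 when knockout sham replicate 2 was left out, 8 when its replicate 1 was, and 4 when either wild-type sham library was, in fits where the lone sample is assumed to vary like the other groups. Zhx2, Tfe3 and Zbed5 passed in all 14 fits that each left out 1 library. Each of the other called genes failed in at least 1 of these fits, and Kcnk2, Abracl, Fabp7 and Tcp11l2 failed in most of them. The p-values measure the spread between these samples, and an exact permutation test of 2 against 2 cannot go below 0.333.

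**Figure D1:**
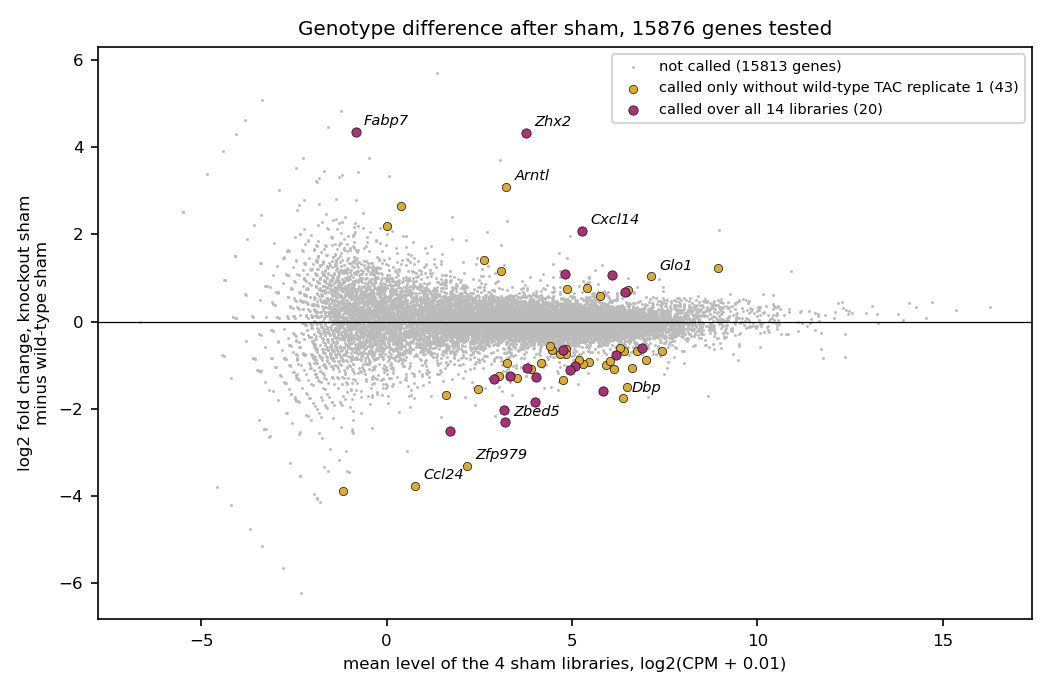
Each point is a gene, with its mean level over the 4 sham libraries on the x axis (log2 of CPM plus 0.01) and the log2 fold change of knockout over wild type after sham on the y axis. The 20 genes called over all 14 libraries are purple, the 43 called only without wild-type TAC replicate 1 are yellow, and Zhx2 and Fabp7 lie highest among the named genes.

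Among the genes that were higher in knockout, Zhx2, which encodes a zinc finger and homeobox transcriptional repressor, had the smallest unadjusted p of all. It stood at 1.32 and 1.22 CPM in the wild-type sham hearts and at 28.1 and 23.5 CPM in the knockout, which gave a log2 fold change of 4.33 (SE 0.41) and an adjusted p of 0.000388 (edgeR quasi-likelihood test). The gap repeated in the TAC hearts, where the knockout libraries held 20.6 to 25.7 CPM and the wild-type libraries 1.23 to 3.95 CPM, the highest of these being replicate 1. Zhx2 (chr15:57694665-57839832, plus strand) overlaps the opposite-strand genes Gm16006 and 9330154K18Rik, and since the strand setting of the counting is not given, reads of these genes cannot be told apart.

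Fabp7, a fatty acid binding protein gene best known from brain, was near 0 in wild type. It had 1 and 1 counts in the wild-type sham libraries against 20 and 22 in the knockout, which is 22.7 times more per library size (exact interval 5.91 to 194, counting error only), with an adjusted p of 0.0324 by edgeR. Both knockout sham hearts were thus near 1 CPM, at 1.03 and 1.08. Cxcl14, a chemokine of the CXC family, was higher in both knockout hearts, with 13.9 and 15.2 CPM in wild type and 53.6 and 70.2 CPM in knockout (log2 2.09, SE 0.31, adjusted p = 0.0209). After TAC its knockout libraries held 25.9 to 37.5 CPM and its wild-type libraries 9.22 to 22.4 CPM.

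The remaining higher genes differed by about a doubling or less. Ano10, of the anoctamin family of membrane proteins, rose from 45.0 and 41.9 CPM to 80.6 and 102 CPM (log2 1.07, SE 0.17). Abracl rose from 19.9 and 15.98 to 36.3 and 40.1 CPM (log2 1.09) and Tcp11l2 from 68.1 and 65.3 to 108 and 105 CPM (log2 0.68). These 3 were called with adjusted p-values of 0.0209, 0.0378 and 0.0378 in edgeR's quasi-likelihood test.

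Of the lower genes, those with a transcription or RNA processing factor as product are given first. Tfe3, a helix-loop-helix factor that activates lysosome and autophagy genes, fell from 43.7 and 47.2 CPM to 23.5 and 21.6 CPM (log2 -1.01, SE 0.11, adjusted p = 0.000388). Zbed5, a zinc finger gene derived from a transposase, fell from 16.3 and 14.3 to 3.65 and 2.55 CPM (log2 -2.31, SE 0.25, adjusted p = 0.000402). Mfap1a, which encodes a spliceosome-associated protein, fell from 24.4 and 25.9 to 8.53 and 5.63 CPM (log2 -1.83, SE 0.27, adjusted p = 0.0151), and its value is uncertain because the near-identical copy Mfap1b can share its reads. In all 3 genes both knockout libraries lay under both wild-type ones, and the same order held without exception in the TAC libraries, where Tfe3 was at 24.9 to 29.2 CPM in knockout and 45.8 to 52.3 CPM in wild type.

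Arl2bp, which encodes a partner of the small GTPase ARL2, fell from 86.5 and 85.7 CPM to 29.8 and 27.5 CPM (log2 -1.59, SE 0.19, adjusted p = 0.00100). Fgf6, a growth factor of skeletal muscle, fell from 12.97 and 16.03 to 4.62 and 2.55 CPM (log2 -2.02, SE 0.32, adjusted p = 0.0267). Kcnk2, a stretch-sensitive background potassium channel gene, fell from 11.2 and 10.1 to 3.39 and 5.19 CPM (log2 -1.31, SE 0.24, adjusted p = 0.0454). The levels of these genes are modest, and of them Arl2bp had the narrowest groups. D430019H16Rik fell from 5.76 and 5.43 to 1.08 and 0.881 CPM (log2 -2.51), the lowest log2 value among the called genes.

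The other called genes that were lower fell by 0.60 to 1.27 on the log2 scale. Patj, a scaffold protein of cell polarity complexes, fell by 1.11, Fam81a by 1.27, Spsb4, a substrate adaptor of ubiquitin ligases, by 1.24, and the long non-coding RNA gene Gm39214 by 1.07. Trabd2b, a membrane protease that inactivates Wnt ligands, fell from 89.8 and 92.4 CPM to 55.3 and 51.4 CPM (log2 -0.77). Atp6v0a1, a subunit of the proton pump that acidifies lysosomes, fell by 0.60 and Tmem8b by 0.64, and these last genes are named after their values were seen. The adjusted p-values of these 7 genes lay between 0.0151 (Fam81a) and 0.0378 (Tmem8b).

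**Figure D2:**
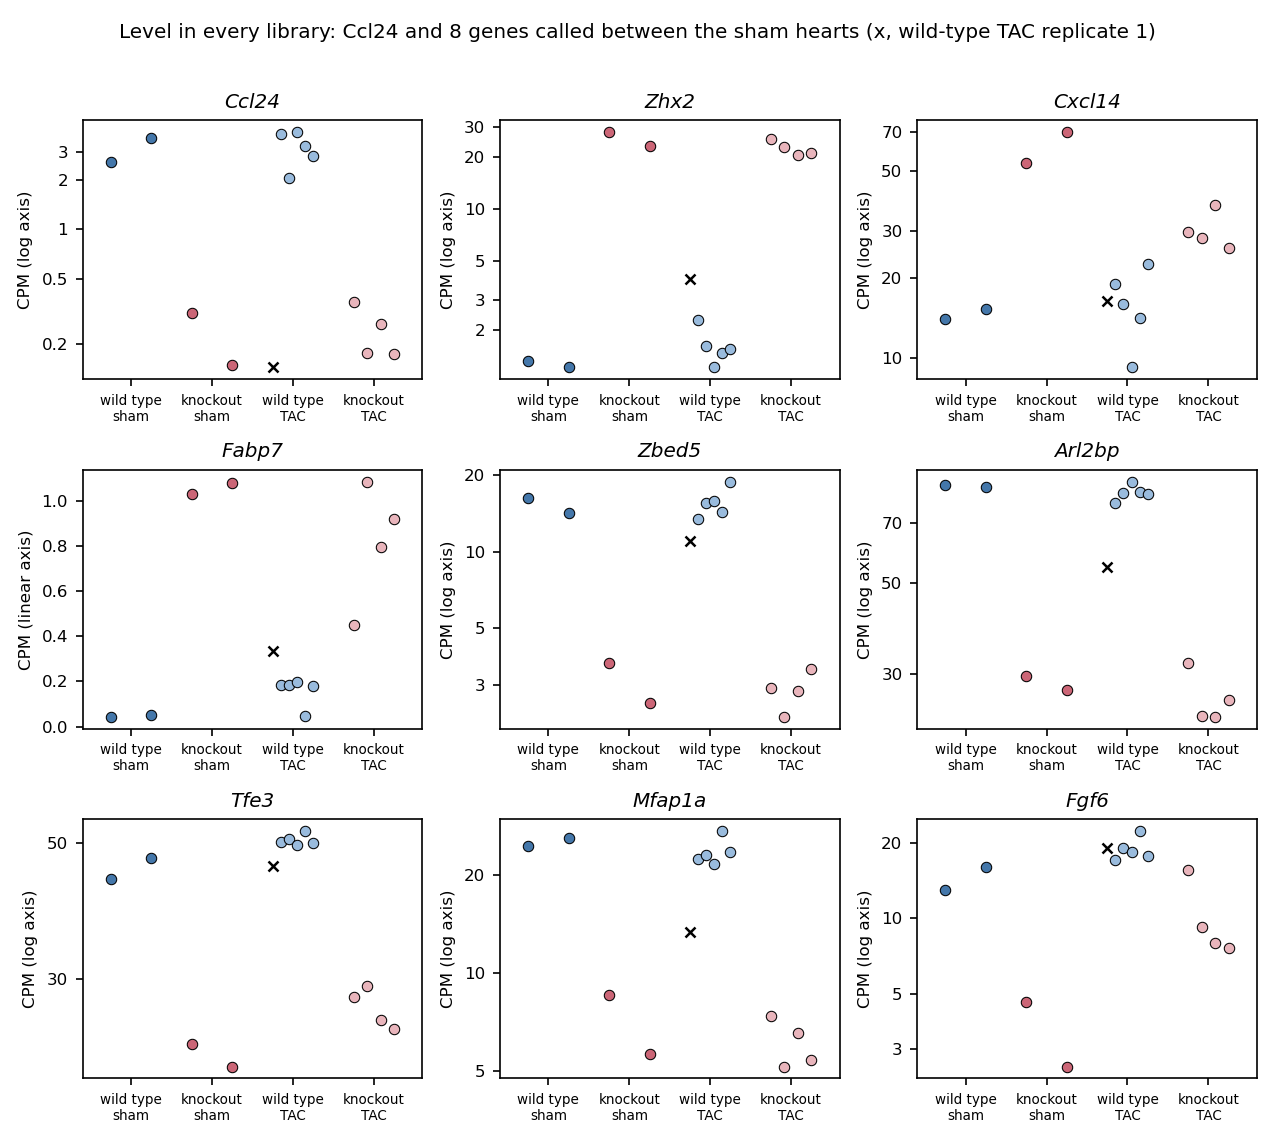
CPM (y axis) of Ccl24 and 8 called genes in every library of the 4 groups (x axis), 1 point a library, with the cross marking wild-type TAC replicate 1. The y axis is logarithmic except for Fabp7, and the knockout sham points of Zhx2 (28.1 and 23.5 CPM) and Arl2bp (29.8 and 27.5 CPM) lie close to the knockout TAC points.

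The genes around Ccl24 were looked at separately. Within 10 Mb on either side, 226 other genes were tested, 1 was called over all 14 libraries (Zbed5, chr5:129895723-129903623, plus strand) and 3 without wild-type TAC replicate 1 (Zbed5, Por and Mrps17), where 0.126% and 0.397% of all genes were called. At an unadjusted p under 0.05 there were 6 higher and 19 lower genes among the 226, beside 5.32% and 6.01% of all genes. Por encodes the reductase that feeds electrons to cytochrome P450 enzymes and starts 97.0 kb from Ccl24, at chr5:135670033-135735326. It had 97.0 and 95.6 CPM in the wild-type sham hearts and 47.2 and 43.2 CPM in the knockout (log2 -1.09, SE 0.25, adjusted p = 0.142 over all 14 libraries and 0.00323 without that library, in which Por stood at 42.9 CPM). Por and Zbed5 were both lower in knockout. Mrps17, a protein of the mitochondrial ribosome, lies at chr5:129715497-129722556 and was higher, with 43.2 and 43.9 CPM against 59.5 and 70.4 CPM (log2 0.58, adjusted p = 0.161 and 0.0299). The median log2 fold change over the 226 genes was -0.04, against 0.01 over all genes tested. Zbed5 overlaps Phkg1 on the opposite strand, so its counts are uncertain in the same way as those of Zhx2.

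Further genes passed only in the fit without wild-type TAC replicate 1, and they are given with the adjusted p of that fit. Glo1, the glyoxalase that clears methylglyoxal, was higher, at 90.1 and 92.8 CPM in wild type and 184 and 193 CPM in knockout (log2 1.04, adjusted p = 0.00116). Acta2, the smooth muscle actin gene, was higher, at 341 and 249 CPM against 795 and 585 CPM (log2 1.23, adjusted p = 0.0409). Fah, an enzyme of tyrosine breakdown, had a log2 fold change of 0.77, the retinal lipid transporter Abca4 1.40, Lingo3 1.17, Cox6b2 2.20 and Fam124b 2.64, the last 2 from levels under 0.51 CPM in wild type.

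Selenow, a small selenoprotein abundant in muscle, was lower, at 137 and 127 CPM in wild type and 47.4 and 46.6 CPM in knockout (log2 -1.49, adjusted p = 0.00498). Zfp979, of a zinc finger family with many similar copies, was at 8.40 and 8.02 against 1.18 and 0.490 CPM (log2 -3.30, adjusted p = 0.0409), and reads of its relatives may not have been told apart. The mitochondrial folate enzyme gene Mthfd1l had a log2 fold change of -1.68, the kinase gene Hipk2 -1.33, Lrrn4cl -1.30 and the non-coding RNA gene 9230112J17Rik -1.55. Casq1, the calsequestrin of fast skeletal muscle, was at 80.1 and 79.1 CPM against 39.4 and 40.9 CPM (log2 -0.99, adjusted p = 0.00200), and is named after its values were seen. In this comparison the 4 libraries fall into groups that do not overlap for each of these genes. The same holds for 53% of all genes tested.

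The gene lists were chosen with earlier results of these data known, so their counts describe the data and are no independent support. Among them the genes of the circadian clock were the list with the largest share of members at a low p. In this clock the activators Arntl (also called Bmal1), Clock and Npas2 switch on E-box genes, among them the Per and Cry repressors, the Nr1d repressors, and Dbp, Tef and Hlf, and the Ror and Nr1d factors act in turn on Arntl through ROR elements. The heart keeps such a clock, and the levels of these genes change over the day. Of the 20 genes listed and tested, 18 had an unadjusted p under 0.05, 4 higher and 14 lower, where 5.32% of all genes tested were higher and 6.01% lower by that rule. Over all 14 libraries 0 of the 20 passed the adjusted threshold in edgeR's test, and Arntl (higher), Cry2, Dbp and Bhlhe41 (lower) passed without wild-type TAC replicate 1. In a fit of the 4 sham libraries alone, whose spread rests on those libraries only, 4 clock genes rose and 14 fell, where 3.4% of 14751 genes rose and 4.45% fell. The hour at which each heart was collected is not known, and its part in these differences was not tested.

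The promoters of clock genes are shown first because the activators Arntl, Clock and Npas2 were higher and the Per, Cry and Nr1d repressors lower. The split was not complete, since the repressor Nfil3 was higher and Rora was lower. Of the 20 genes, 17 had windows of 250 bases before to 50 bases after a transcription start in the RefSeq promoter table (GRCm38.p6). These were searched on both strands for the E-box CACGTG, for the ROR element core TAGGTCA and for the D-box TTANGTAA, which do not overlap one another in the windows printed. Capitals mark the matches. Ciart, a repressor of the clock that was lower in knockout, holds the E-box at 3 places in its window (chr3:95882179-95882478, minus strand).
Ciart: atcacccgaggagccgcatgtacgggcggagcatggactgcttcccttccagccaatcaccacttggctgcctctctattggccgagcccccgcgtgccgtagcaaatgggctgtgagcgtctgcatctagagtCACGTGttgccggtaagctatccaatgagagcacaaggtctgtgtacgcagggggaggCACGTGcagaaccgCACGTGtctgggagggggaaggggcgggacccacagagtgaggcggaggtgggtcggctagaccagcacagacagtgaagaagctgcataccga
Arntl, which was higher, holds the ROR element core after its start (chr7:113207261-113207560, plus strand).
Arntl: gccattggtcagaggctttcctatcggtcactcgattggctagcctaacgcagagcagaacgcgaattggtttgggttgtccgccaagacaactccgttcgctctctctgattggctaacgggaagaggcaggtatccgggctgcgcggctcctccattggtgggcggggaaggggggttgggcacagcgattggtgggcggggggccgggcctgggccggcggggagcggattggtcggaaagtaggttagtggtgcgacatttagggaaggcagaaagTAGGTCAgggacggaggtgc
Nfil3, a repressor at D-box sites that was also higher, holds it just before its start, on the other strand (chr13:52980990-52981289, minus strand).
Nfil3: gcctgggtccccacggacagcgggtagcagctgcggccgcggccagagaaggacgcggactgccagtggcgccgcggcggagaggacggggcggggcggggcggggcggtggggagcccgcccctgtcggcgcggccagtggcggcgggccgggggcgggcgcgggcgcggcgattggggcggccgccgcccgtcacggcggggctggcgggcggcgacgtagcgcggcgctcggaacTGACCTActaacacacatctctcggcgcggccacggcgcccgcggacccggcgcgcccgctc
Per3, a lower member, holds the D-box at 2 places (chr4:151044616-151044915, minus strand).
Per3: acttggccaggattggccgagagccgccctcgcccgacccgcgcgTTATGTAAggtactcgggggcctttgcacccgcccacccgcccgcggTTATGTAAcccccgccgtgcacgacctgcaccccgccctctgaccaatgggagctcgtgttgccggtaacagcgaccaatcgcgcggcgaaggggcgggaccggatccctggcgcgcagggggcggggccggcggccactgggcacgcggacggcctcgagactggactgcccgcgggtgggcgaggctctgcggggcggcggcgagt
A gene was counted where any of its windows held the motif. The E-box was in 5 of the 17 genes (29.4%; Bhlhe41, Ciart, Cry1, Per1 and Tef), and in 8.09% of the 27025 genes of the table. The ROR element core was in 2 (11.8%; Arntl and Nfil3), and in 2.97% of all genes. The D-box was in 1 (5.88%; Per3), and in 2.72% of all genes. Over the 32851 single windows of the table the shares were 7.15%, 2.61% and 2.32%. A match describes these letters in this window only.

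Among the activators, Arntl stood at 1.45 and 2.49 CPM in the wild-type sham hearts and at 16.95 and 16.4 CPM in the knockout (log2 3.09, SE 0.65, adjusted p = 0.105 over all 14 libraries and 0.0348 without wild-type TAC replicate 1). Npas2, which can take the place of Clock, stood at 1.75 and 2.03 against 5.55 and 8.23 CPM (log2 1.87, SE 0.71, adjusted p = 0.341). Clock differed less, at 31.8 and 29.9 against 48.5 and 41.8 CPM (log2 0.55, SE 0.12, adjusted p = 0.105). Both knockout hearts were above both wild-type hearts for the 3 activators and for Nfil3, which had 7.89 and 9.34 against 16.4 and 16.4 CPM (log2 0.93, SE 0.28).

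The output factors that bind D-box sites were lower in the knockout hearts. Dbp had 137 and 120 CPM in wild type and 39.4 and 37.1 CPM in knockout (log2 -1.74, SE 0.32, adjusted p = 0.0600 and 0.0351 without that library). Tef had 248 and 251 against 112 and 106 CPM (log2 -1.20, SE 0.26) and Hlf 36.0 and 36.5 against 15.9 and 12.1 CPM (log2 -1.37, SE 0.55). Dbp overlaps Sphk2 on the opposite strand.

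The Per and Cry repressors, which close the loop, were lower as well. Per2 stood at 36.0 and 38.3 against 14.4 and 10.5 CPM (log2 -1.57, SE 0.51) and Per3 at 49.6 and 54.5 against 20.2 and 18.3 CPM (log2 -1.44, SE 0.47). Cry2 stood at 57.8 and 57.6 against 31.4 and 29.0 CPM (log2 -0.93, SE 0.19, adjusted p = 0.0625 and 0.0333). Cry1 differed by -0.63. Per1, at 68.8 and 66.8 against 53.5 and 43.9 CPM (log2 -0.48, unadjusted p = 0.126), and Rora, at 26.4 and 28.3 against 21.6 and 22.4 CPM (log2 -0.31, unadjusted p = 0.134), were the 2 members whose unadjusted p was above 0.05.

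Of the other repressors, Ciart stood at 9.73 and 9.44 against 4.21 and 3.62 CPM (log2 -1.29, SE 0.44) and Bhlhe41 at 33.3 and 30.5 against 18.03 and 19.9 CPM (log2 -0.75, adjusted p = 0.239 and 0.0351). Nr1d1, Nr1d2 and Bhlhe40, repressors too, had log2 fold changes of -0.62, -0.69 and -0.70, and the deubiquitinase gene Usp2 of -0.55. The groups did not overlap for any of the 20 genes, where 53% of all genes tested show no overlap. The median log2 fold change of the list was -0.66, against 0.01 over all genes. The clock genes beyond Arntl, Clock, Cry2, Dbp, Bhlhe41 and Tef are named after their values were seen.

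After TAC the 10 other hearts gave 18 of the 20 clock genes the same sign, with a median of -0.45, and 1 higher and 7 lower passed, where 9.34% of all genes passed in that comparison. Arntl was at 7.46 to 11.8 CPM in the knockout TAC libraries. In the wild-type TAC libraries it was at 7.43 CPM in replicate 1 and at 1.42 to 5.90 CPM in the other 5. Hlf was at 9.10 CPM in wild-type TAC replicate 1 and 10.1 in replicate 7, and at 21.03 to 32.3 CPM in the other 4 wild-type TAC libraries, so these 2 libraries stood nearer to the knockout for that gene. Dbp was less far apart after TAC, at 64.8 to 103 CPM in knockout and 69.0 to 158 CPM in wild type. The difference between the sham and TAC contrasts had an unadjusted p of 0.0059 and an adjusted p of 0.997 for Dbp in edgeR's test. Of the 20 clock genes, 6 had an unadjusted p under 0.05 for this difference, where 4.08% of all genes did. None of the 20 passed the adjusted threshold for it. In 16 of the 20 the log2 fold change was nearer 0 after TAC.

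**Figure D3:**
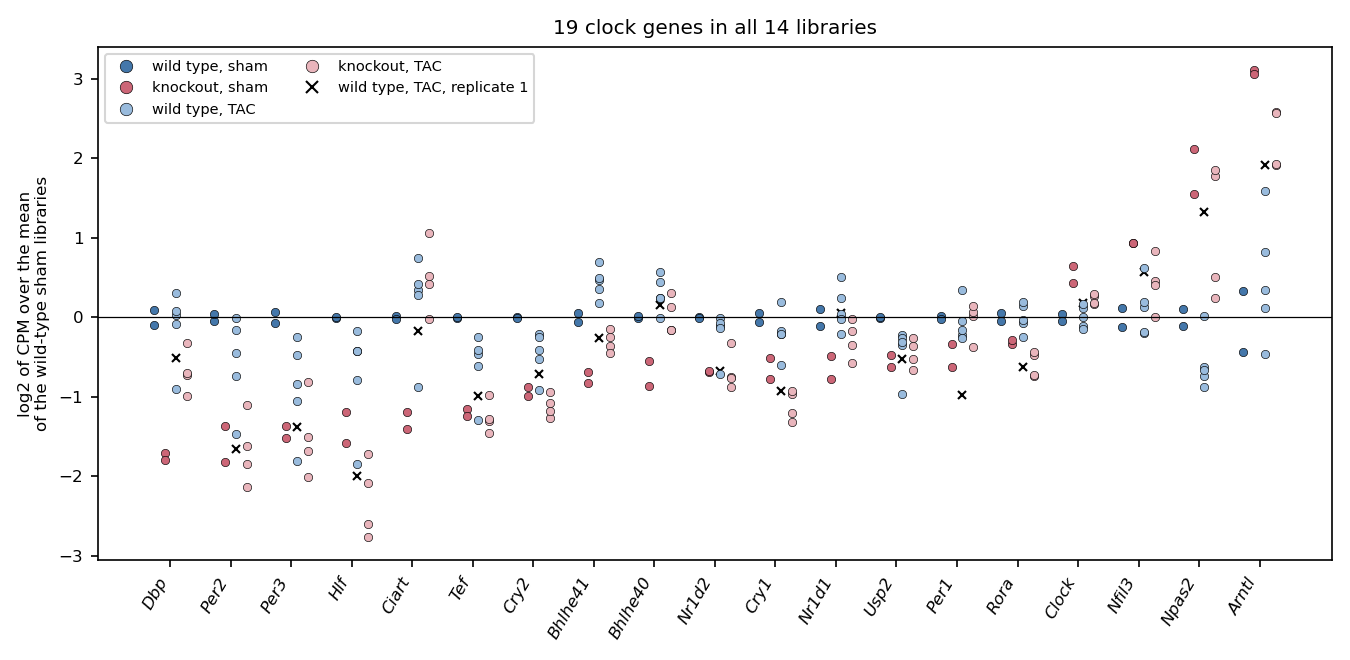
For each of 19 clock genes (x axis, ordered by the sham difference) the y axis gives the log2 of CPM over the mean of the wild-type sham libraries, 1 point a library, coloured by group, with a cross for wild-type TAC replicate 1. The knockout sham points of Arntl lie at 16 to 17 CPM, near 3 on this axis, and those of Dbp at 37.1 and 39.4 CPM.

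Genes of the respiratory chain that are encoded in the nucleus had small and even log2 fold changes above 0 in the knockout sham hearts. All 39 members were positive, with a median of 0.38, and 26 had an unadjusted p under 0.05, all higher, where 5.32% of all genes were higher by that rule. None passed the adjusted threshold over all 14 libraries or without wild-type TAC replicate 1 (edgeR), and 17 rose in the fit of the 4 sham libraries alone, where 3.4% of all genes rose. Ndufs7, a subunit of complex I, stood at 316 and 319 CPM in wild type and 399 and 509 CPM in knockout (log2 0.52, SE 0.17, adjusted p = 0.296). Cox6c, a subunit of complex IV, stood at 645 and 638 against 793 and 1041 CPM (log2 0.52, adjusted p = 0.303), and Ndufa1 and Cox5b differed by 0.54 and 0.45. In each of these genes knockout replicate 2 was the higher of the knockout hearts.

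Of 15 genes encoded in mitochondrial DNA, 2 (mt-Nd6 and mt-Co3) were higher at an unadjusted p under 0.05, beside 5.32% of all genes. The median of these mitochondrial genes was 0.35. Their share of all counts was 18.8% and 18.5% in the wild-type sham libraries and 20.5% and 23.7% in the knockout, means of 18.6% ± 0.245 and 22.1% ± 2.21 (SD, n = 2 each; exact permutation p = 0.333, the smallest that 2 against 2 can give). Knockout replicate 2 had the highest share of the 4. Its part in the respiratory chain values was not tested. The strand caveat holds for mt-Nd6, which overlaps mt-Nd5.

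Genes of fatty acid oxidation and the PPAR programme, which steer the heart towards burning fat, were mostly above wild type: 28 of 32 had a positive log2 fold change, with a median of 0.21, 4 had an unadjusted p under 0.05 upwards and 1 downwards (5.32% and 6.01% of all genes), and 0 passed over all 14 libraries. In the fit of the 4 sham libraries alone 8 rose and 1 fell (3.4% and 4.45% of all genes). Pdk4, the kinase that holds back pyruvate oxidation, stood at 182 and 193 CPM in wild type and 996 and 617 CPM in knockout (log2 2.104, SE 0.43, adjusted p = 0.102). The thioesterase gene Acot1 stood at 2.60 and 2.44 against 12.7 and 8.37 CPM (log2 2.06, SE 0.44, adjusted p = 0.0926). The fatty acid transporter gene Cd36 differed by 0.33 and the receptor gene Ppara by -0.81 (20.05 and 20.3 against 14.8 and 8.18 CPM). The list of glucose and lactate use had a median of -0.01 over 23 genes and 0 members with an unadjusted p under 0.05.

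Of 24 cardiomyocyte genes that respond to load, 19 had a negative log2 fold change, with a median of -0.50. An unadjusted p under 0.05 was reached by 7, all lower, where 6.01% of all genes were lower by that rule, and 0 passed over all 14 libraries. In the fit of the 4 sham libraries alone 13 fell, where 4.45% of all genes fell. Nppa, the atrial natriuretic peptide gene, stood at 705 and 541 CPM in wild type and 181 and 203 CPM in knockout (log2 -1.70, SE 0.77, adjusted p = 0.437). Ankrd1, a stretch-responsive sarcomere protein, stood at 4417 and 4620 against 2514 and 2542 CPM (log2 -0.84, SE 0.21, adjusted p = 0.161). Gdf15, a stress cytokine, stood at 11.9 and 12.9 against 2.36 and 3.18 CPM (log2 -2.16, SE 0.67), and Acta1, the skeletal actin gene, at 6276 and 7100 against 3638 and 3963 CPM (log2 -0.82, SE 0.28). In all 4 genes both knockout hearts lay under both wild-type hearts. The same order was seen in 4182 of the 15876 genes tested. The ventricular list of contraction and ion handling genes had a median of 0.04 over 28 members, 1 of them with an unadjusted p under 0.05.

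In the matrix and collagen list 32 of 39 genes had a log2 fold change below 0 and 7 above it, with a median of -0.37. At an unadjusted p under 0.05 there were 3 lower and 1 higher, close to the 6.01% and 5.32% of all genes, and 0 passed over all 14 libraries. In the fit of the 4 sham libraries alone 18 of 38 fell and 2 rose, where 4.45% of all genes fell and 3.4% rose. Fbln2, a matrix glycoprotein, stood at 267 and 282 against 150 and 162 CPM (log2 -0.82, SE 0.34), and Timp2, an inhibitor of matrix proteases, at 217 and 206 against 154 and 146 CPM (log2 -0.49, SE 0.18). Of 16 activated fibroblast genes 13 were below 0 and 3 above it, Acta2 among these (median -0.74). At an unadjusted p under 0.05 there were 2 lower and 1 higher, beside 6.01% and 5.32% of all genes. The summed level of the list was higher in knockout, at 788 and 616 CPM in wild type and 971 and 754 CPM in knockout. In that sum Acta2 stood at 341 and 249 against 795 and 585 CPM. Postn, a matrix protein of activated fibroblasts, stood at 234 and 178 against 68.3 and 55.2 CPM (log2 -1.74, SE 0.75, adjusted p = 0.416) and Thbs4 at 41.4 and 34.3 against 10.1 and 10.1 CPM (log2 -1.90, SE 0.78, adjusted p = 0.387). Genes of resting fibroblasts had a median of -0.15 over 22 members, and the fibroblast receptor gene Pdgfra stood at 70.6 and 66.3 against 63.2 and 65.2 CPM.

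In the TGF-beta and BMP list 4 of 23 genes had an unadjusted p under 0.05, all lower, beside 6.01% of all genes, and the list's median was -0.15. Tgfb2, a ligand, stood at 30.6 and 25.5 against 9.14 and 10.3 CPM (log2 -1.53, SE 0.67, adjusted p = 0.426). Bmp4, another ligand, stood at 11.5 and 13.8 against 7.96 and 6.37 CPM (log2 -0.82, SE 0.22, adjusted p = 0.201).

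Of the chemokine's own family, 14 of 20 CC chemokine genes were tested, with 2 at an unadjusted p under 0.05 upwards and Ccl24 alone downwards (median -0.04). By that rule 5.32% of all genes were higher and 6.01% lower. Ccl11, the other eotaxin gene of the mouse, stood at 2.30 and 1.27 CPM in wild type and 3.39 and 3.43 CPM in knockout (log2 0.92, SE 0.38, adjusted p = 0.373). Ccl8, which attracts monocytes and other leukocytes, stood at 1.24 and 0.660 against 3.08 and 3.18 CPM (log2 1.70, SE 0.45, adjusted p = 0.190). Neither passed the adjusted threshold. Of 14 receptors 8 were tested, and the scavenging receptors Ackr2 and Ackr4 had log2 fold changes of -0.82 and -1.12 (adjusted p = 0.158 and 0.321).

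Eosinophils, the cells that Ccl24 attracts, could not be assessed at this depth. None of their 11 marker genes passed the filter on low counts. Ccr3, the receptor of Ccl24, had 3 and 0 counts in the wild-type and 0 and 0 in the knockout sham libraries, where 3 counts stand for 0.128 to 0.154 CPM in these libraries.

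Macrophage genes stood at similar summed levels in both genotypes. The 20 core macrophage genes had a median of -0.03, and their summed level was 533 and 556 CPM in wild type and 540 and 567 CPM in knockout. Of 12 genes of resident macrophages 7 were below 0 and 5 above it, with a median of -0.04. An unadjusted p under 0.05 was reached by 3, all lower (Cbr2 at -0.57, Lyve1 at -0.53 and F13a1 at -0.39), where 6.01% of all genes were lower by that rule. The scavenger receptor gene Cd163 stood at 11.1 and 11.5 against 19.01 and 15.4 CPM (log2 0.60, adjusted p = 0.318). The 7 neutrophil genes tested were all above 0 (median 1.33, summed level 11.9 and 11.2 against 21.1 and 25.4 CPM). An unadjusted p under 0.05 was reached by 2, where 5.32% of all genes were higher by that rule. Their levels were low, with S100a8 at 1.19 and 1.17 against 2.52 and 3.43 CPM. The endothelial list had a median of 0.19 over 20 genes, and the T and NK cell list of 0.51 over 13 genes with a summed level under 10.8 CPM. Hemoglobin and other erythroid genes, a sign of blood left in the tissue, had a median of 0.06 and summed to 185 and 211 against 138 and 275 CPM.

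Genes of antigen presentation and of the interferon response had medians above 0. Of 13 class I genes 6 had an unadjusted p under 0.05 upwards and 1 downwards (median 0.34), and of 29 interferon genes 7 upwards and 0 downwards (median 0.48), beside 5.32% and 6.01% of all genes. None passed over all 14 libraries by edgeR, and 9 interferon genes rose in the fit of the 4 sham libraries alone, where 3.4% of all genes rose. B2m, the light chain of class I molecules, stood at 134 and 132 against 162 and 206 CPM (log2 0.47, SE 0.15, adjusted p = 0.288), and H2-K1 at 40.5 and 42.3 against 51.5 and 61.9 CPM. H2-Q7 went the other way, at 0.896 and 0.913 against 0.103 and 0.196 CPM (log2 -2.55, SE 0.70, adjusted p = 0.207), and it is uncertain because its family holds near-identical copies. Irf7, an inducer of interferon genes, stood at 13.1 and 11.2 against 17.6 and 19.6 CPM (log2 0.61, adjusted p = 0.284).

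In the complement list C7 was below wild type at 61.0 and 58.8 against 32.0 and 32.1 CPM (log2 -0.90, SE 0.20, adjusted p = 0.105), and C3 and C4b were above it with log2 fold changes of 0.80 and 0.69. Cdkn1a, the cell cycle inhibitor p21, stood at 11.99 and 12.99 against 47.3 and 50.4 CPM (log2 1.97, SE 0.66, adjusted p = 0.306). The 34 genes of the cell cycle list had a median of 0.21. In each direction 1 member had an unadjusted p under 0.05, beside 5.32% of all genes higher and 6.01% lower. Genes of the lysosome and autophagy list, among them targets of Tfe3, were below 0 in 18 of 22 cases with a median of -0.14. An unadjusted p under 0.05 was reached by 3, all lower, where 6.01% of all genes were lower by that rule. Ctsk stood at 16.8 and 13.4 against 7.14 and 7.25 CPM. A link to Tfe3 was not tested.

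**Figure D4:**
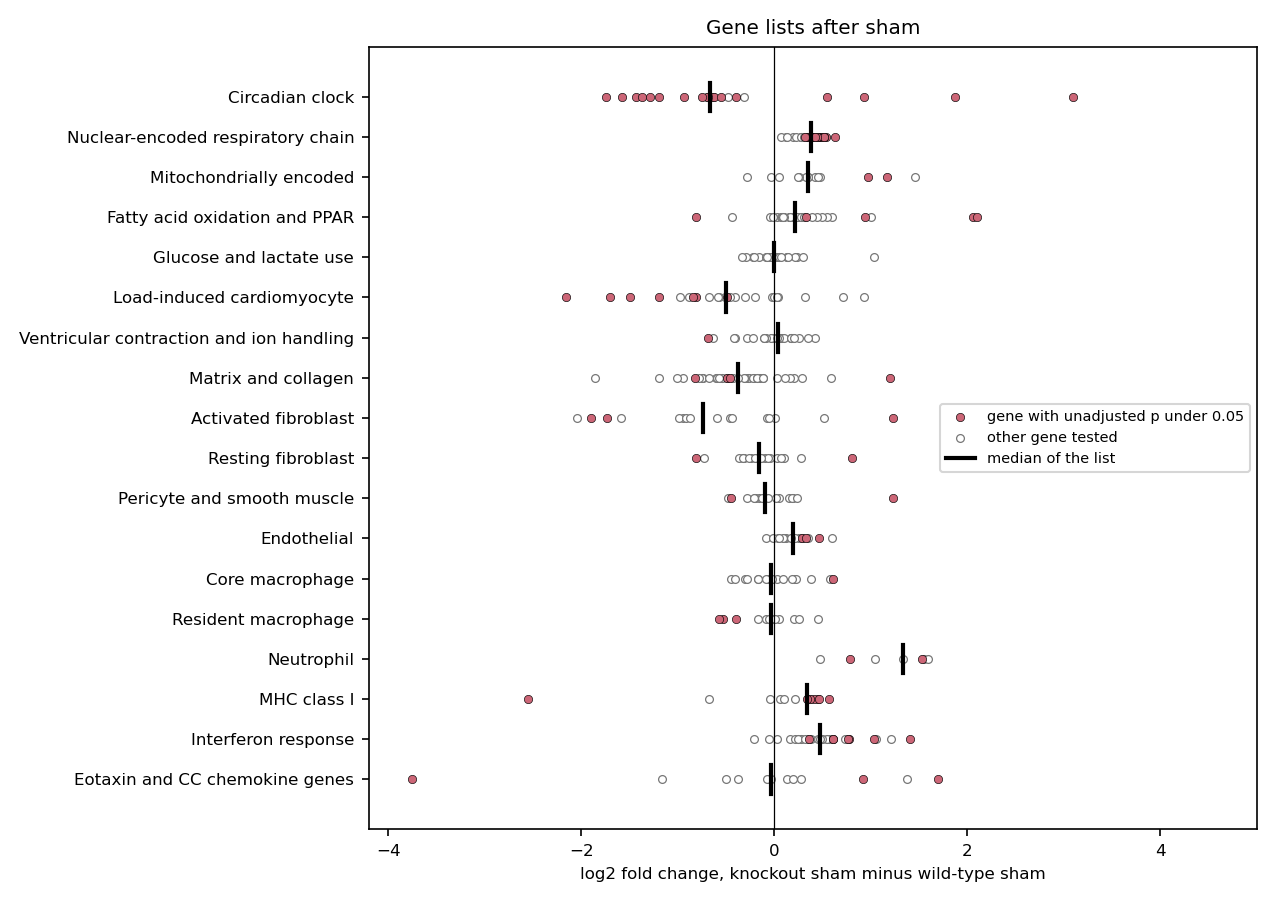
Each row is a gene list and each point a tested member, at its log2 fold change of knockout over wild type after sham (x axis). Points are filled where the unadjusted p is under 0.05, with a bar at the list's median. The clock list spreads to both sides around a median of -0.66, and the respiratory chain genes lie close together around 0.38.

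The TAC hearts share no library with the sham hearts, so each called gene was measured again in other mice of the same genotypes. Both comparisons use the same estimate of each gene's spread, so their calls are not independent of each other. All 20 genes had the same sign after TAC and 15 of them also passed there, where 9.34% of all genes passed in either direction. Of the 63 genes called without wild-type TAC replicate 1, 62 had the same sign after TAC and 58 also passed with the same sign in that fit, where 18.5% of genes passed. On a scale where the wild-type sham mean is 0 and the knockout sham mean is 1, the median over the 20 genes was 0.669 to 0.875 in the 4 knockout TAC libraries, -0.0431 to 0.0840 in wild-type TAC replicates 2, 3, 4, 6 and 7, and 0.264 in replicate 1.

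The size of the difference was in most cases nearer 0 after TAC, in 18 of the 20 genes. The genes were chosen for their difference after sham, so a smaller value in a second measurement carries no test by itself. Zbed5 had a log2 fold change of -2.39 after TAC against -2.31 after sham, and Mfap1a -1.84 against -1.83. Cxcl14 had 0.90 against 2.09, Ano10 0.31 against 1.07, Spsb4 -0.28 against -1.24 and Fgf6 -0.91 against -2.02. The test of the difference between the contrasts called 0 genes (0%) over all 14 libraries with edgeR, with 647 at an unadjusted p under 0.05 (4.08%), among them 11 of the 20. Without wild-type TAC replicate 1 edgeR called 3 (0.0189%). For the same contrast limma voom called 0, and DESeq2 called 6 with its own test and over 27239 genes.

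**Figure D5:**
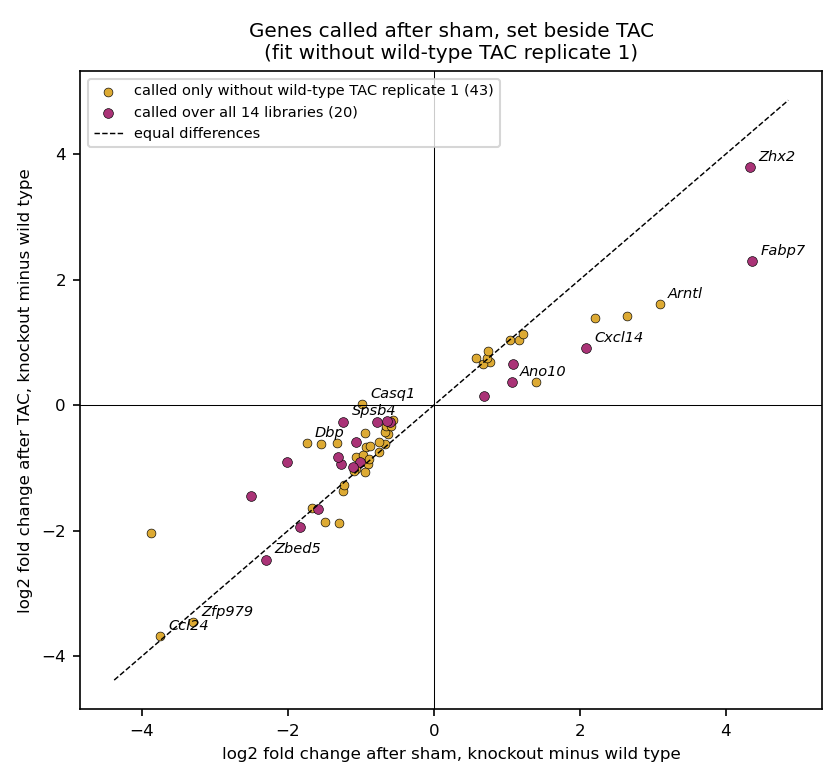
The 63 genes called after sham without wild-type TAC replicate 1, with the log2 fold change of knockout over wild type after sham (x axis) and after TAC (y axis) from that fit. The dashed line marks equal differences, Zbed5 and Ccl24 lie close to it, and Casq1 lies near 0 on the TAC axis.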

How the data were processed

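The authors deposited raw read counts per gene, whole numbers without normalization. Per the submitters' processing notes, FastQC, HISAT2 2.1.0, featureCounts and edgeR were used on GRCm38; their settings, the annotation release and the strand setting of the counting are not stated in these sources. Of 54532 gene IDs 54409 matched GENCODE M21, which gave coordinates. Libraries of a group differed by more than sampling noise (chi-square per degree of freedom of at least 4.55), so each was 1 replicate. Intervals cover counting error only.

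Counts were filtered with filterByExpr, scaled with TMM and fitted with edgeR 4.0.16 (R 4.3.3; glmQLFit, robust) in a model of 4 group means over all 14 libraries. The quasi-likelihood F test gave knockout against wild type after sham, after TAC and the difference of these, with Benjamini-Hochberg adjustment over all genes tested and a threshold of 0.05. The SE is the log2 fold change divided by the square root of F. The steps were run on simulated counts with the same dispersion for every gene and no library against its label. Such a run checks the code and cannot show how stable the counts of called genes are. Alternatives were RLE scaling, DESeq2 1.42.0, limma 3.58.1 (voom), other filters, the 4 sham libraries alone, a replicate block, and leaving out each library.

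Gene lists (43, with 820 distinct genes) were described by counts and medians, with no test of a list. Genes named are Ccl24, up to 12 called genes a side with the largest change whose higher group averaged 1 CPM or more, up to 8 a side more from the fit without wild-type TAC replicate 1, up to 4 members of each list with the smallest p, and called genes within 10 Mb of Ccl24. Gene models with provisional names were limited to 4 a side. A result for 1 gene of the clock list is not reported here. The members and lists were chosen with earlier results of these data known.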

Additional observations from a re-analysis of the deposited data

Results flagged for a closer look

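In 3 genes the genotype difference after TAC differed from that after sham by edgeR's test of that difference (Benjamini-Hochberg), in the fit without wild-type TAC replicate 1. The same edgeR fit over all 14 libraries called 0 genes, and gave adjusted p-values for Apold1, Cd163 and Casq1 of 0.107, 0.348 and 0.997.

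Apold1, an early response gene of endothelial cells, stood at 15.9 and 12.9 CPM in wild-type sham and 9.81 and 9.45 CPM in knockout sham. After TAC it stood at 25.2 to 31.5 CPM in knockout and, without replicate 1, at 10.7 to 14.3 CPM in wild type. The difference of the differences was 1.78 on the log2 scale (adjusted p = 0.00115), with the TAC groups apart in all 4 knockout libraries.

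Cd163, a scavenger receptor of resident macrophages, went the other way. It stood at 11.1 and 11.5 against 19.01 and 15.4 CPM after sham, and after TAC at 9.77 to 10.5 CPM in knockout and, without replicate 1, at 16.3 to 20.8 CPM in wild type. Replicate 1 stood at 10.8 CPM, next to the knockout. The difference was -1.50 (adjusted p = 0.00204).

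Casq1 was apart after sham only, with 80.1 and 79.1 against 39.4 and 40.9 CPM, while the TAC libraries held 82.5 to 101 CPM in knockout and 81.3 to 104 CPM in wild type without replicate 1. The difference was 1.01 (adjusted p = 0.0361).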

How the results depend on the processing

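The 2 sham libraries of each genotype limit every result, and 10 of the 14 libraries behind the spread are TAC hearts. The number of genes called after sham was 20 (6 higher, 14 lower). It was 29 with RLE scaling (22 lower), 143 with DESeq2 (36 higher, 107 lower), 17 with limma voom, 44 with no filter on low counts (36 lower), 20 with a minimum of 1 CPM, 1158 in the 4 sham libraries alone (501 higher, 657 lower) and 20 with mitochondrial genes left out of library sizes. Leaving out 1 library gave 3 to 79 (1 to 19 higher, 2 to 60 lower), with 79 without wild-type TAC replicate 7, 63 without replicate 1 and 31 without knockout TAC replicate 1. The 20 genes kept their direction in every fit that tested them, and limma voom called 14 of them. After TAC 1483 genes passed, 2332 with DESeq2, and 302 to 2939 with 1 library left out. The count for the difference between contrasts was 0 with edgeR, 6 with DESeq2 and 3 with no filter, and 0 to 3 with 1 library left out. Ccl24 passed with DESeq2 (log2 -3.80), in the 4 sham libraries alone (-3.74) and without wild-type TAC replicate 1 (-3.76), with values of -4.37 to -3.32 when 1 library was left out.

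The deviations of same-numbered sham libraries from their group means correlated at 0.00755. With 2 libraries a group this is a single value, so it cannot decide whether replicate numbers pair the samples. Same-numbered TAC libraries of the 2 genotypes correlated at -0.215, -0.141 and -0.103. With the replicate block 13 genes passed after sham (8 lower), 7 of them among the 20, and 45 after TAC. The cause was not tested for any of these shifts.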

Other observations

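A few other genes differed widely between the sham groups without passing the adjusted threshold in edgeR's test, and they are named here after their values were seen. Gm47283, on chromosome Y, stood at 1.19 and 1.17 CPM in wild type and 16.95 and 14.1 CPM in knockout (log2 3.71, SE 0.83, adjusted p = 0.146), and it was higher in knockout after TAC too (log2 2.70, adjusted p = 0.00805). Col22a1, a collagen of tissue junctions, stood at 4.27 and 4.82 against 0.873 and 1.13 CPM (log2 -2.17, adjusted p = 0.142) and was lower after TAC (log2 -1.83, adjusted p = 0.00805). Scd4, a stearoyl-CoA desaturase gene expressed in heart, stood at 3.16 and 3.20 against 20.04 and 11.3 CPM (log2 2.30, adjusted p = 0.201).

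One value rested on 1 library. The symbol Ccl21a, a chemokine of lymphatic vessels and lymph nodes that has several copies in the mouse genome, belonged to a pair of gene IDs. ENSMUSG00000094686 held 1 count over all 14 libraries and was not tested. ENSMUSG00000095320 stood at 9.89 CPM in knockout sham replicate 2 and at 0.206 CPM or less in the other 3 sham libraries.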
